A study of Drosophila melanogaster with 2 samples.

Results

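The regions described here are peaks of NC2alpha binding that sit at divergent promoters, where a protein-coding gene on the minus strand and a protein-coding gene on the plus strand start close together and are transcribed away from each other. A peak was taken when its summit lay within 500 bp of an annotated transcription start site (TSS) of both genes and the TSS of the minus-strand gene was at or before that of the plus-strand gene on the chromosome. Of 2174 peaks in the authors' reproducible list (the optimal list, on the dm6 build), 364 met this rule, or 16.7% (95% interval 15.2 to 18.4%, exact Clopper-Pearson, counting error only). The data come from whole Drosophila melanogaster embryos of both sexes, aged 0 to 24 h, of a transgenic line that makes NC2alpha with eGFP at its C terminus. Chromatin was sonicated, precipitated through the tag with an anti-GFP antibody and sequenced (ChIP-seq) in 2 biological replicates. All cell types and stages of embryogenesis are therefore pooled, a single tagged line was used, and there is 1 group with no condition to compare. Each region has a pooled signal and, matched from the overlapping peak in each replicate's own list, a value in each replicate. All are the authors' scores, on an unstated scale.

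NC2alpha forms a histone-fold heterodimer with NC2beta that binds TATA-binding protein (TBP) on DNA. The dimer blocks the joining of the general factors TFIIA and TFIIB, and in Drosophila extracts it has been found to repress TATA promoters and to stimulate promoters with a downstream promoter element. In a divergent promoter, a pair of genes shares a stretch of nucleosome-poor DNA from which polymerases leave in opposite directions, an arrangement that is common in the compact fly genome and frequent among broadly expressed genes. Several DNA motifs are known at such housekeeping promoters: the DNA replication-related element (DRE) bound by Dref, the CGATA repeats bound by the boundary factor BEAF-32, Ohler motif 1 bound by M1BP, Ohler motifs 6 and 7, and an E-box.

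The stretches between the start sites of 7 of the 25 strongest regions are printed first, because they show how little separates the paired genes and which motif letters do and do not occur there. They were read from the Release 6 (dm6) reference sequence, plus strand, from the base after the TSS of the minus-strand gene to the base before the TSS of the plus-strand gene, and none holds an annotated exon. Capitals mark matches, on either strand, to TATCGATA (DRE), CGATA, GGTCACAC (Ohler 1), GTATNTTT (Ohler 6), CATCNCTA (Ohler 7) and CAGCTG (E-box). CGATA is contained in TATCGATA, so every DRE also counts as CGATA, and TATCG is CGATA on the other strand. The first region, chr3R:15229409-15229664, holds TATCG and an Ohler 6 match. The second, chr3L:9426759-9427009, holds Ohler 7, TATCG and, near the Shc start, a DRE. The third, chr3R:8650797-8651083, has 3 copies of CGATA near the Mkk4 start. The next is chr2L:11106646-11106942, with an E-box and CGATA matches on both strands. The short stretch chr3R:25247515-25247657 has 1 E-box. The last pair, chr3L:8600880-8601005 and chr3L:19612200-19612454, has no match to any of the 6 motifs, which says only that these letters are not in the printed stretches. The stretches of Mnat9/CG1792, Coq4/CG32176 and Bdp1/CG6565, eligible but not printed, had no match either. Nelf-E/RpL14 does have an Ohler 6 match within 100 bp of its summit, not wholly inside the printed stretch, and is counted with it below. The summits fell at base 115, 126, 142, 194, 2, 98 and 108 of the stretches, in the order printed.
Art3/mRpS10: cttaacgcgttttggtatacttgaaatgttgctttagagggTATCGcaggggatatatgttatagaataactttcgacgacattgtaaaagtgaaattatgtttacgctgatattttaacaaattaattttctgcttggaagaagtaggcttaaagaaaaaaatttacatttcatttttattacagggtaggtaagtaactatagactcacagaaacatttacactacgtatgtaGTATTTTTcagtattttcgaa
Atat/Shc: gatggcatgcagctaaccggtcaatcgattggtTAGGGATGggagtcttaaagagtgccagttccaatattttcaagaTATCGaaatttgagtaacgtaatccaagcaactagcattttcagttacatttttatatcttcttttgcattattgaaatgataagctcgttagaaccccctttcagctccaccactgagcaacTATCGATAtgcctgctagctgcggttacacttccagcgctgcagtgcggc
Mkk4/SLIRP2: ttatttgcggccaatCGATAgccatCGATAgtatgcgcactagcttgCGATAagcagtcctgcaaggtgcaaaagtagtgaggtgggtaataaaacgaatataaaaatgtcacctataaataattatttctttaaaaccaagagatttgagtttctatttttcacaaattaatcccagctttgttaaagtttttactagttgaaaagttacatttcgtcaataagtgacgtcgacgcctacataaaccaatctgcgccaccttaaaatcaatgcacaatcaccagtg
Reps/l(2)gd1: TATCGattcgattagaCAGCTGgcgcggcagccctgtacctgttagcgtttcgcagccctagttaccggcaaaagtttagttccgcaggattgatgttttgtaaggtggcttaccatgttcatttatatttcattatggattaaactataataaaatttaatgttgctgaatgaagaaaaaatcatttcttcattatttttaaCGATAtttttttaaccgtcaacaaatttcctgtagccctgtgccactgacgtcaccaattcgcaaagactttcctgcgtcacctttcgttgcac
RpS27/Nup37: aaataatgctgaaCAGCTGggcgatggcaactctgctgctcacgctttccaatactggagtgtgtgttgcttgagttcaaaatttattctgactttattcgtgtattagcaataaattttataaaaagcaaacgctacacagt
Nelf-E/RpL14: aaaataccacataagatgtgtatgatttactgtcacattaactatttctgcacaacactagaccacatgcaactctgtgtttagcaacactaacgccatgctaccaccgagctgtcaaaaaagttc
Lon/PIG-F: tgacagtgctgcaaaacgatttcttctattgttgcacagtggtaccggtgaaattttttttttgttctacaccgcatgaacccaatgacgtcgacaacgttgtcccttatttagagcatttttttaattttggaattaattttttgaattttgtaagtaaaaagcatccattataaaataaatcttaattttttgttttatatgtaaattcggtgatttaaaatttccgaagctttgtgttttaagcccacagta

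The strongest divergent peak was at the paired starts of Chro, which encodes the chromodomain protein Chromator of decondensed interband chromatin, and Ssl1, a subunit of the general factor TFIIH. It had a pooled signal of 919, with 481 in replicate 1 and 441 in replicate 2. Its summit was at position 22878896 of chromosome 3L, 88 bp inside Chro and 193 bp upstream of the Ssl1 start, with 105 bp between the start sites. The second was Art3/mRpS10, between an arginine methyltransferase gene and a gene of the small mitochondrial ribosomal subunit, with a pooled signal of 778 and replicate values of 402 and 379. The third was mRpS23/CenG1A, another mitochondrial ribosomal gene paired with the gene of an Arf GTPase-activating protein, at 678 pooled, 367 in replicate 1 and 312 in replicate 2. Thus each of the 3 strongest regions had high values in both replicates, and both mitochondrial ribosomal pairs had the summit between the start sites, 115 bp from Art3 and 142 bp from mRpS10 in the first, and 384 bp from mRpS23 and 108 bp from CenG1A in the second.

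Fbw5/CG9147, next to an F-box and WD-repeat gene, reached 611 pooled, 344 in replicate 1 and 269 in replicate 2. Tcs5/CHMP2B, of a tRNA-modifying kinase and an ESCRT-III subunit, reached 540, with 269 and 270. Atat/Shc, of the tubulin acetyltransferase and a receptor tyrosine kinase adaptor, reached 507, with 241 and 264, and its summit lay exactly 126 bp from each start. These values differed little between replicates, and the summit of Tcs5/CHMP2B was likewise near the middle, 102 and 122 bp from the starts.

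The next regions held genes of iron storage, secretion and signalling. Fer1HCH/Fer2LCH, the heavy and light chains of the iron store ferritin, had 383 pooled, 181 in replicate 1 and 212 in replicate 2, and its summit was 218 bp inside Fer2LCH. Fur1/Vps33B, of a furin protease and a vesicle fusion factor, had 423 pooled, 223 in replicate 1 and 199 in replicate 2. Mkk4/SLIRP2, of a kinase of the JNK pathway and a mitochondrial RNA-binding protein, had 416, with 233 and 185. Stt3A/bves, of the oligosaccharyltransferase catalytic subunit, had 399, with 243 in replicate 1 and 151 in replicate 2. The summits of Fur1/Vps33B, Mkk4/SLIRP2 and Stt3A/bves lay between the start sites, 411 bp from Stt3A in the most distant case. By annotation the ferritin and Stt3A/bves summits were in introns, and those of Fur1/Vps33B and Mkk4/SLIRP2 were intergenic.

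The NC2alpha gene is itself one of the strongest members, in a pair with PIG-M, a mannosyltransferase of GPI-anchor synthesis. Its pooled signal was 370, with 201 in replicate 1 and 185 in replicate 2, and the summit was 93 bp upstream of NC2alpha and 143 bp upstream of PIG-M. The transgene also carries NC2alpha sequence, and reads from it and from the endogenous locus could not be told apart here. Its window held 5 coding genes in 4 head-to-head combinations. Among the 25 strongest, Bdp1/CG6565, which holds the gene of a TFIIIB subunit for RNA polymerase III, had 325 pooled, 157 in replicate 1 and 169 in replicate 2. Nelf-E/RpL14, which holds a subunit of the pausing factor NELF, had 341, with 204 and 128. Lon/PIG-F, of a mitochondrial protease and a GPI-anchor gene, had 325, with 149 and 176, and Reps/l(2)gd1, of endocytosis and Notch trafficking, had 317, with 151 and 174.

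**Figure D1:**
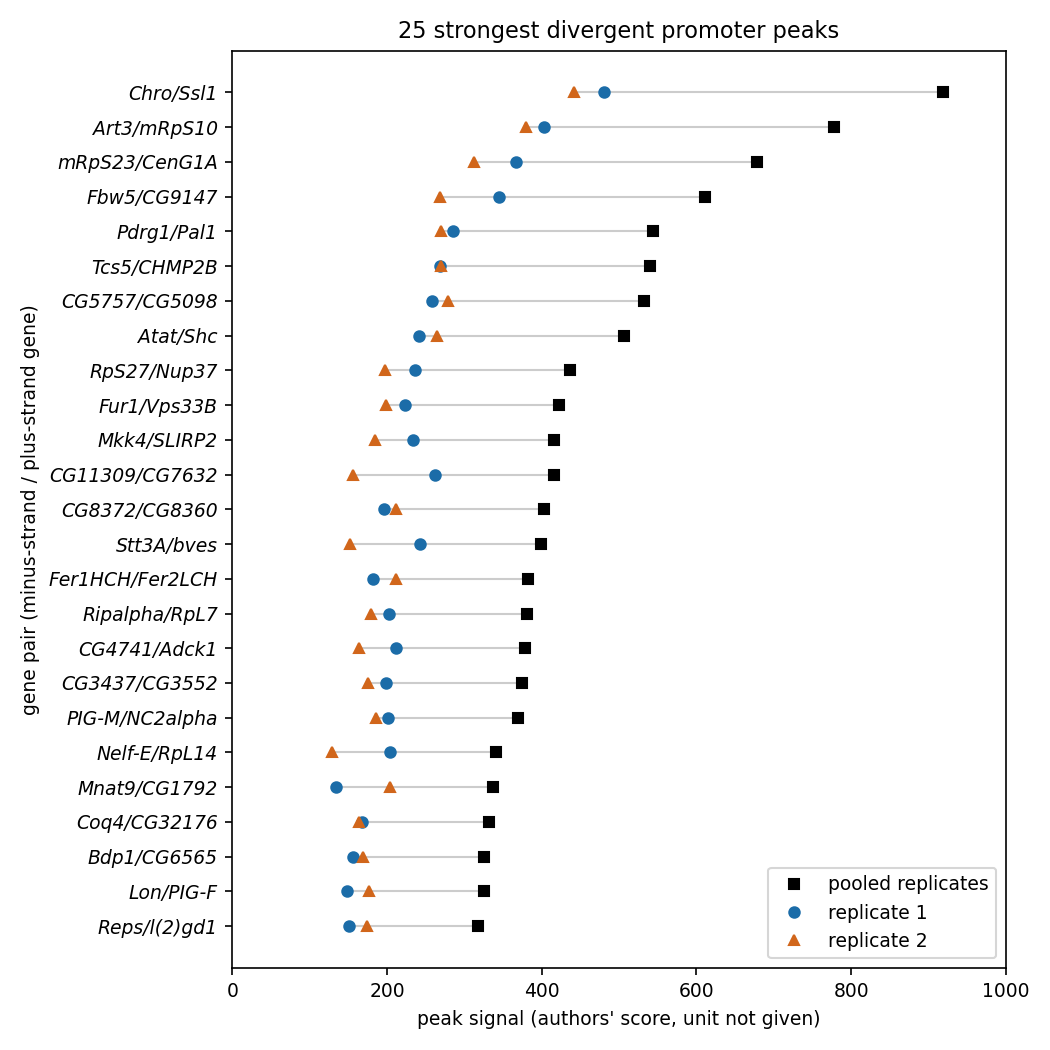
Signal of the 25 strongest divergent promoter peaks, as pooled value (squares), replicate 1 (circles) and replicate 2 (triangles), in the authors' units. Every one has replicate values within 2-fold of each other, and replicate 1 is the higher in 16 of the 25.

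In the 25 strongest regions the ratio of replicate 1 to replicate 2 ran from 0.658 to 1.68, and 19 had the summit between the start sites. Over all 364 regions the pooled signal ran from 82.0 to 919, with quartiles of 95.6 and 174 and a median of 122. Peaks at the start of a single coding gene had a median of 120 (729 peaks) and all other optimal peaks together 117 (1810 peaks). Divergent regions were thus about as strong as other peaks, and they made up 22 of the 100 strongest and 91 of the 500 strongest. By symbol, 38 regions joined genes that both carry only a CG number, 134 had 1 such gene and 192 had none. The share of such genes among all coding genes is not set beside these counts.

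Most regions were simple in their annotation. Of the 364, 342 had 1 head-to-head pair of coding genes, 22 had 2 or more pairs, and 8 had a non-coding TSS within 500 bp too. The most crowded was at pre-mod(mdg4)-E/pre-mod(mdg4)-Y, with 10 coding genes and 21 combinations; these are separately annotated pieces of the trans-spliced mod(mdg4) locus, which encodes a family of boundary proteins. Its pooled signal was 227, with 102 in replicate 1 and 120 in replicate 2. Where a region had several pairs, the pair of start sites with the smallest summed distance to the summit was used. This choice can take a close pair beside the summit over a wider pair around it. In 9 cases the list held 2 peaks with summits 199 to 253 bp apart at the same pair of genes, such as CG5611/Mtl, where the pooled values were 277 and 83.2. Both of these peaks were matched to the same replicate values, 134 and 151, because a replicate value is that of the strongest overlapping replicate peak, so the weaker peak then has no replicate value of its own. In 1 of the 9 cases, Fur1/Vps33B, the weaker peak shared only its replicate 2 value, 199, and had 82.6 in replicate 1.

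A larger share of head-to-head coding genes than of other coding genes had a peak. Of 2667 head-to-head pairs with start sites at most 1000 bp apart, 401 (15.0%; interval 13.7 to 16.5%) had an optimal summit within 500 bp of both starts. The pairs contain 5052 of 13945 protein-coding genes, or 36.2%, and 909 of these genes had an optimal summit within 500 bp of a TSS, or 18.0% (16.9 to 19.1%). Of the 8893 coding genes in no such pair, 551 did, which is 6.20% (5.70 to 6.72%), and over all coding genes the share was 10.5%. The intervals of paired and unpaired genes do not overlap. The windows of paired genes overlap each other, so 1 summit can count for both genes of a pair. A summit can also count for several pairs, 21 at the most, and the intervals treat each pair or gene as separate. The 743 genes at divergent regions made up 50.9% of the 1460 bound coding genes.

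Counted per length of sequence, summits were densest between the start sites. The positions within 500 bp of both starts of a pair cover 1.62 Mb, or 1.21% of the 6 chromosomes with peaks, and held 224 summits per Mb. Within them, 0.788 Mb lies between the start sites of some pair and held 338 of the 364 summits, 429 per Mb, and the other 0.837 Mb held 26 summits, 31.1 per Mb. Sequence within 500 bp of any other coding TSS held 54.9 summits per Mb, and the rest of the chromosomes 8.92 per Mb. The density between paired starts was therefore higher than that of all sequence around other coding starts, and the density in the flanks of the pairs was lower. Other coding starts are counted with 500 bp on both sides, so the zones differ in distance from and side of the start. No zone of matched position was compared.

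Binding varied with the distance between the start sites. With a gap of 0 to 100 bp, 17.2% of 430 pairs were bound, and with 101 to 200 bp 17.1% of 356. The share was 23.6% of 542 pairs at 201 to 300 bp, 20.2% of 400 at 301 to 400 bp and 13.5% of 267 at 401 to 500 bp. From 501 to 700 bp it was 5.80% of 362, and none of the 310 pairs from 701 to 1000 bp was bound, where the interval reaches 1.18%. The positions that satisfy the rule shrink as the gap grows, so the low shares at wide gaps are partly set by the rule. The intervals of the 4 bins up to 400 bp overlap each other. A summit at several pairs was counted once for each of them.

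**Figure D2:**
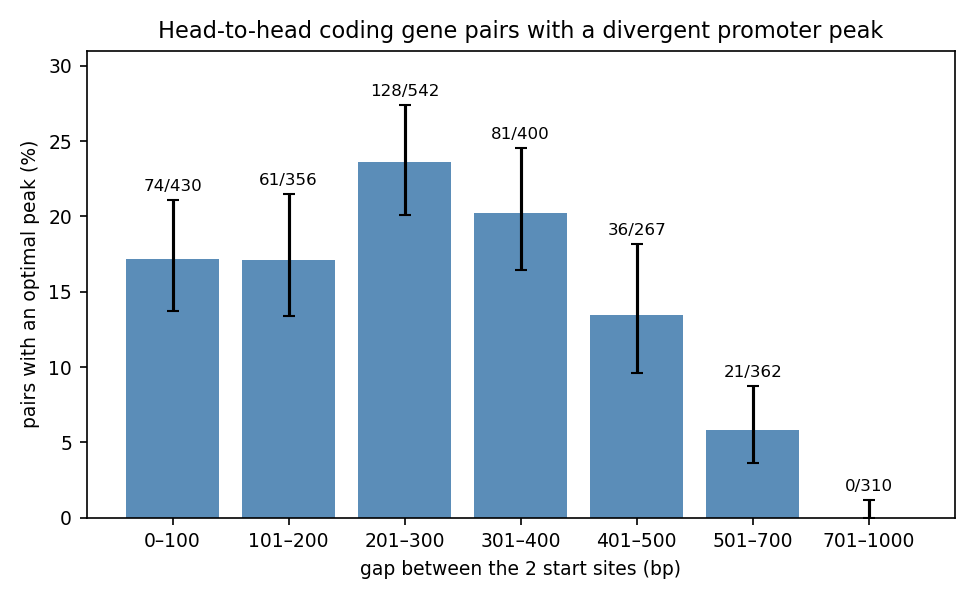
Percent of head-to-head coding gene pairs with a divergent promoter peak (vertical axis), by the gap between their start sites in bp (horizontal axis). Bars show the share, whiskers exact 95% binomial intervals, and labels bound pairs over all pairs; the highest bar is 23.6% at 201 to 300 bp and the last bin is at 0.

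Unbound pairs often had weaker signal below the reproducibility filter. Of the 2266 pairs without an optimal peak, 1017 (44.9%) had one of the authors' 30000 relaxed pooled peaks by the same rule, against 3039 of 8342 unbound coding genes in no pair (36.4%). Divergent regions were a larger share of the high-ranked pooled entries than of the low-ranked ones, which can hold background: 18.2% of the 500 strongest met the rule, 15.8% of those ranked 1001 to 2174, 6.74% of those ranked 5001 to 10000 and 2.24% of those ranked 20001 to 30000. Among entries at a coding TSS alone, the divergent share went from 32.3% in the 500 strongest to 12.0% in the last tier.

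The start sites of the 364 regions were a median of 269 bp apart (quartiles 184 and 352, range 8 to 656). By the closest start sites of each pair, the median gap was 251 bp in bound pairs and 317 bp in unbound pairs. In 288 regions, or 79.1% (74.6 to 83.2%), the summit was between the starts so chosen, while 338 summits were between the starts of at least some pair. It was on the side of the plus-strand gene in 34, a median of 32 bp into that gene, and on the side of the minus-strand gene in 42, a median of 53.5 bp in. Of these 76, 62 were within 100 bp of the nearer start. By annotation, 225 summits were intergenic, 91 in an exon and 48 in an intron. The rule itself places summits close to both starts of a pair, and no shares for other peaks are set beside these.

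Summits fell throughout the gap between the starts. The nearer start was a median of 68.5 bp from the summit and the farther one 198 bp. Of the 288 summits between the starts, 75 (26.0%) were in the middle of the gap, at relative positions 0.4 to 0.6, and 205 (71.2%) were at 0.2 to 0.8. The plus-strand start was the nearer in 166 of them, the minus-strand start in 121, and 1 was equally far. In the 128 with a gap of at least 300 bp, the medians were 118 bp to the nearer start and 296 bp to the farther, and 40 of them (31.2%) had the summit at relative positions 0.4 to 0.6. The peak interval covered both starts in 163 regions (44.8%), and most optimal peaks have the same width of 404 bp, so the intervals carry little about the extent of binding.

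**Figure D3:**
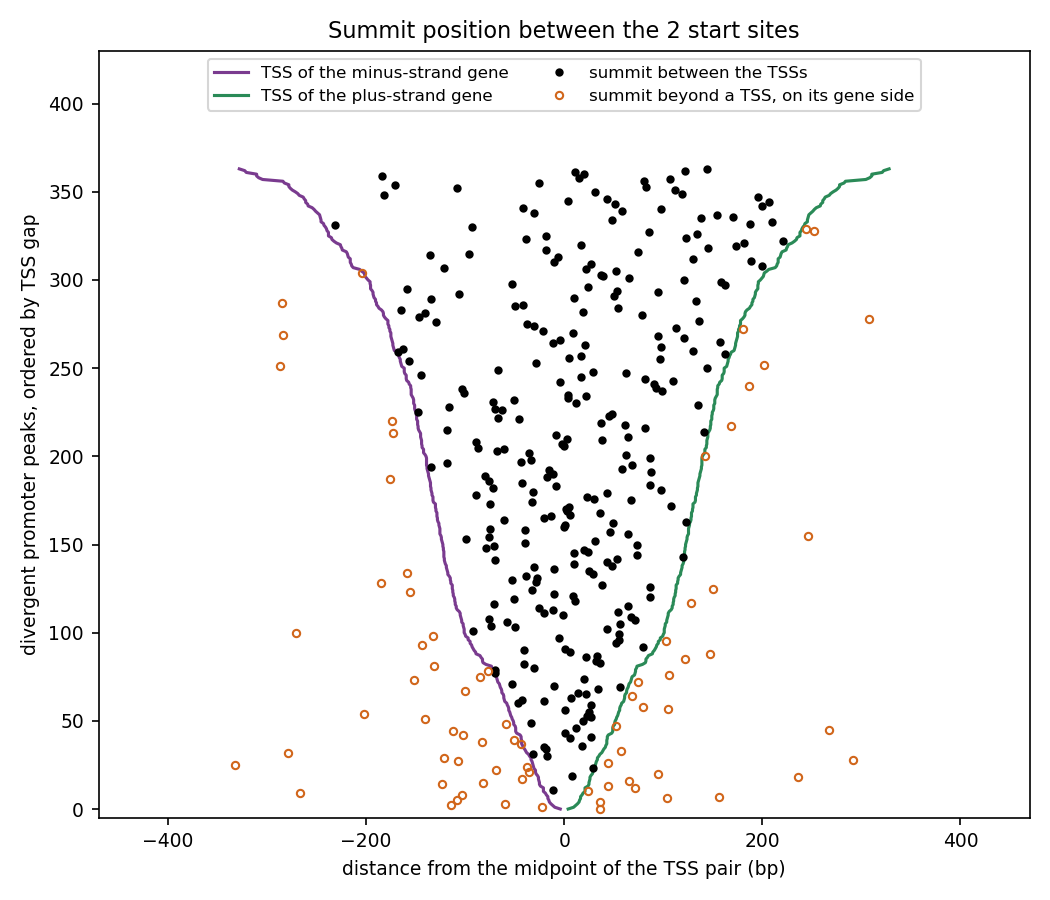
Position of each summit (points) relative to the midpoint of its TSS pair in bp (horizontal axis), with the 364 regions stacked by the gap between the starts (vertical axis). The coloured lines are the minus-strand and plus-strand start sites; 288 filled points lie between them and 76 open points lie beyond a start, on the side of its gene, most of them where the gap is small.

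At the shortest gap, 8 bp between the seryl-tRNA synthetase gene SerRS and CG17260, the pooled signal was 160, with 63.0 in replicate 1 and 97.4 in replicate 2. MED6/Naa80, which holds a Mediator subunit gene, had a gap of 19 bp and values of 128, 70.0 and 59.1. CG7208/Arp5, with a subunit of the INO80 remodeller, had a gap of 23 bp and values of 85.2, 37.7 and 43.3. At such gaps a summit cannot be assigned to either gene. At the other end, CG3735/Taldo, with the transaldolase gene of the pentose phosphate pathway, had a gap of 656 bp and values of 102, 59.3 and 46.0. The next were dpr14/spidey at 645 bp, with 181, 102 and 81.3, and yin/CG2930 at 642 bp, with 146, 70.8 and 73.0. The rank correlation of signal with gap was weak (Spearman's rho -0.07 over 364 regions of the same libraries, given as a description).

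The limit of 500 bp left near neighbours on both sides. Just inside it, Acbp1/Piezo had its farther start 494 bp away (pooled signal 217) and CG12929/RpL31 492 bp away (184). Just outside, Oda/CCT5 was at 501 bp (195), Sfp26Ad/Gpdh1 at 503 bp (119) and tank/CG12194 at 505 bp, whose signal of 466 would have placed it among the strongest regions. Of the members, 14 had the farther start over 450 bp away.

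Genes of the cytoplasmic ribosome stood at 28 divergent regions. Of 55 ribosomal protein genes in a head-to-head pair, 28 (50.9%) were at a divergent region, against 743 of 5052 of all paired coding genes (14.7%). Of the 37 ribosomal protein genes in no pair, 16 (43.2%) had an optimal peak, against 6.20% of all unpaired coding genes, so the high share was not limited to paired genes. The median signal of the 28 regions was 180, and that of the other 336 was 119. RpS27/Nup37, which joins a small-subunit protein to a nuclear pore subunit, was the strongest, at 437 pooled, 237 in replicate 1 and 197 in replicate 2. Ripalpha/RpL7 had 381, 202 and 179, with 30 bp between the starts. These were followed by Nelf-E/RpL14, given above, and RpL41/NaCP60E, which had 250, 154 and 99.6.

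At these 28 regions the summit was close to the ribosomal protein gene. It was nearer to the ribosomal start than to the partner's in 27 of 28, a median of 26.5 bp from the former and 254 bp from the latter, over a median gap of 291 bp. At CG7130/RpLP0 the summit was 6 bp upstream of RpLP0 and 330 bp from CG7130 (pooled 243, with 136 and 102). At CG6693/RpL3 it was 5 bp upstream of RpL3 and 250 bp from CG6693, with 222 pooled, 168 in replicate 1 and 47.9 in replicate 2. RpL18/Neos, with the summit 4 bp from RpL18, likewise had most of its signal in replicate 1, at 96.9 against 26.5. Replicate 1 was the higher in 24 of the 28, with a median ratio of 1.45, against 1.11 over the other 336 regions. This lean was not particular to them. At single-gene promoter peaks replicate 1 was the higher in 587 of 718, with a median ratio of 1.39. Among the other lists the median ratio ran from 0.813 (mitochondrial import, 1 region) to 1.46 (oxidative phosphorylation, 9 regions). In the other lists the side was mixed in all that had more than 3 regions. The summit was nearer the listed gene in 4 of 11 regions with a mitochondrial ribosomal gene, 3 of 8 with a polymerase or general factor gene and 3 of 9 with an oxidative phosphorylation gene, and in 3 of 3 with a splicing gene. The count was 3 of 5 for the proteasome, 3 of 4 for translation factors and 3 of 4 for Mediator. It was 2 of 4 for aminoacyl-tRNA synthetases, 2 of 4 for the nuclear pore and 1 of 4 for boundary and architecture proteins.

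Genes of the transcription machinery were present without a high share. Of 48 paired genes of RNA polymerases and general factors, 8 (16.7%) were at a divergent region, near the 14.7% of all paired genes. Besides Ssl1, NC2alpha and Bdp1 they were Brf, another TFIIIB subunit (Brf/sds22, pooled 232, with 113 and 107), the RNA polymerase II subunit genes Polr2H (171, with 68.5 and 98.7), Polr2B (86.2, with 42.7 and 44.7) and Polr2J (84.4, with 39.9 and 45.3), and Taf7 of TFIID (94.9, with 43.4 and 56.6). Their signals spanned nearly the whole range of the members. Of 21 paired Mediator genes, 4 were at such regions: MED30 (MED30/Rev1, 245, with 139 and 109), MED27, MED6 and MED7.

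The genes of chromatin boundary and architecture proteins were a small list, of which 4 of 9 paired genes (44.4%) and 3 of 5 unpaired genes (60.0%) were bound, beside 14.7% of all paired coding genes at a divergent region and 6.20% of all unpaired coding genes. The divergent ones were Chro, Dref, Cp190 and pzg. Dref, the factor that binds the DRE, shares its promoter with RpL13, at a pooled signal of 186 (121 in replicate 1 and 74.0 in replicate 2) and a gap of 84 bp. Cp190/CG4338, of a zinc-finger protein common to insulator complexes, had 158, with 90.7 and 86.3. CG12974/pzg, of a partner of Dref, had 133, with 61.8 and 68.4. With 9 genes the share rests on few values.

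Other lists of housekeeping genes had shares near that of all paired genes. The counts were 11 of 58 for mitochondrial ribosomal proteins (19.0%), 9 of 44 for oxidative phosphorylation (20.5%), 5 of 26 for the proteasome (19.2%), 4 of 23 for aminoacyl-tRNA synthetases (17.4%), 4 of 27 for translation factors (14.8%), 4 of 21 for the nuclear pore (19.0%), 3 of 27 for cell cycle and replication (11.1%), 3 of 28 for splicing (10.7%) and 1 of 5 for mitochondrial import. Art3/mRpS10 and mRpS23/CenG1A, among the 3 strongest, each carried a mitochondrial ribosomal gene, but the median of those 11 regions was 118. No gene of the mitochondrial ribosome in no pair had an optimal peak (0 of 15), nor did any of the 41 unpaired oxidative phosphorylation genes, beside 6.20% of all unpaired coding genes. Among the oxidative phosphorylation regions, TppII/ND-MWFE, with a complex I subunit, was the strongest, at 238 pooled, 117 in replicate 1 and 112 in replicate 2. Over the 13 lists, 88 of 391 paired genes (22.5%) were at a divergent region, and 280 of the 364 regions held no listed gene, with a median signal of 119. In 4 regions there was a listed gene on both sides: Chro/Ssl1, RpS27/Nup37, Dref/RpL13 and RpL28/eIF1, the last with a translation initiation factor, at 198 pooled, 114 in replicate 1 and 84.9 in replicate 2.

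The motifs printed above were counted within 100 bp of each summit, and beside that in windows of the same 201 bp at other peaks and promoters. A DRE (TATCGATA) was present at 40 of 364 divergent summits, or 11.0% (7.97 to 14.7%), at 4.12% of 729 single-gene promoter summits and at 0.617% of 972 summits farther than 500 bp from any TSS. At the midpoints of 2266 unbound head-to-head pairs the share was 8.21%, and at all 13945 coding promoters, in windows centred 100 bp upstream of the representative start, 7.24%. The DRE share of divergent regions was thus above that of single-gene peaks, while the interval includes the share of unbound pairs. CGATA was at 44.8% of divergent summits, 33.5% of single-gene summits and 40.9% of unbound midpoints, with 38.6% at all promoters. Of the 40 regions with a DRE, 30 had it within 50 bp of the summit. The strongest were Atat/Shc, RpL41/NaCP60E and RpS25/CG4820.

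Ohler 7 (CATCNCTA) and the E-box (CAGCTG) were more frequent at divergent summits than in each of the other kinds of window. Ohler 7 was at 39 of 364 summits, or 10.7% (7.73 to 14.3%), against 4.94% at single-gene summits, 4.55% at unbound midpoints and 3.72% at all promoters. The E-box was at 69, or 19.0% (15.1 to 23.4%), against 10.4%, 12.4% and 11.6% in the same order. Windows at midpoints and at summits are not placed alike. With midpoints used for both, and gaps of 100 to 400 bp, Ohler 7 was at 8.89% of 270 bound pairs (5.78 to 12.9%) and 4.47% of 1030 unbound pairs (3.29 to 5.91%), whose intervals overlap slightly, and the E-box was at 11.1% and 12.0%. Over all gaps, Ohler 7 was at 9.73% of 401 bound midpoints (7.01 to 13.1%) and 4.55% of 2266 unbound ones (3.73 to 5.49%), whose intervals do not overlap, and the E-box was at 14.5% (11.2 to 18.3%) and 12.4% (11.1 to 13.9%), whose intervals do. These intervals treat each pair as separate, though 21 of the bound pairs share 1 summit. Bound and unbound pairs also differ in gap, since none of the 310 pairs from 701 to 1000 bp was bound. For gaps of 100 to 400 bp, DRE was at 10.7% of bound and 8.83% of unbound midpoints, and CGATA at 40.4% and 45.8%, so CGATA was not the more frequent in bound pairs there. Ohler 1 (GGTCACAC) was at 5.22% of divergent summits and 5.65% of unbound midpoints, with 3.74% at all promoters. Ohler 6 (GTATNTTT) was at 11.0%, 13.2% and 11.3% in that order.

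The GAGA repeat (GAGAGAG), which is bound by GAGA factor at many developmental promoters, was rare. It was found at 4 divergent summits, or 1.10% (0.300 to 2.79%), against 9.33% of single-gene summits and 5.14% of summits away from TSSs. At unbound midpoints it was at 2.47%, inside the interval of the divergent regions, and at all promoters at 4.96%. TATAAA occurred at 34.9% of divergent summits, 27.6% of single-gene summits and 36.7% of all promoters, TCAGT, an initiator core, at 27.5%, 36.6% and 33.7%, and CTCTTT, a polypyrimidine start-site element, at 13.2%, 15.5% and 13.3%. These short motifs were counted anywhere in the window, not at their set distance from a start, and all searches covered both strands. The windows were also richer in A and T at divergent summits, with a median GC content of 36.3% against 39.8% at single-gene summits, and its part in the motif shares was not tested. Of the 364 regions, 195 held none of DRE, Ohler 1, 6 and 7 and the E-box, 134 held 1 kind, 32 held 2 and 3 held 3. No such count for other windows is set beside these, so they are a description of the regions only. The median signal was 122 without any, 121 with 1 kind and 127 with 2 kinds.

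**Figure D4:**
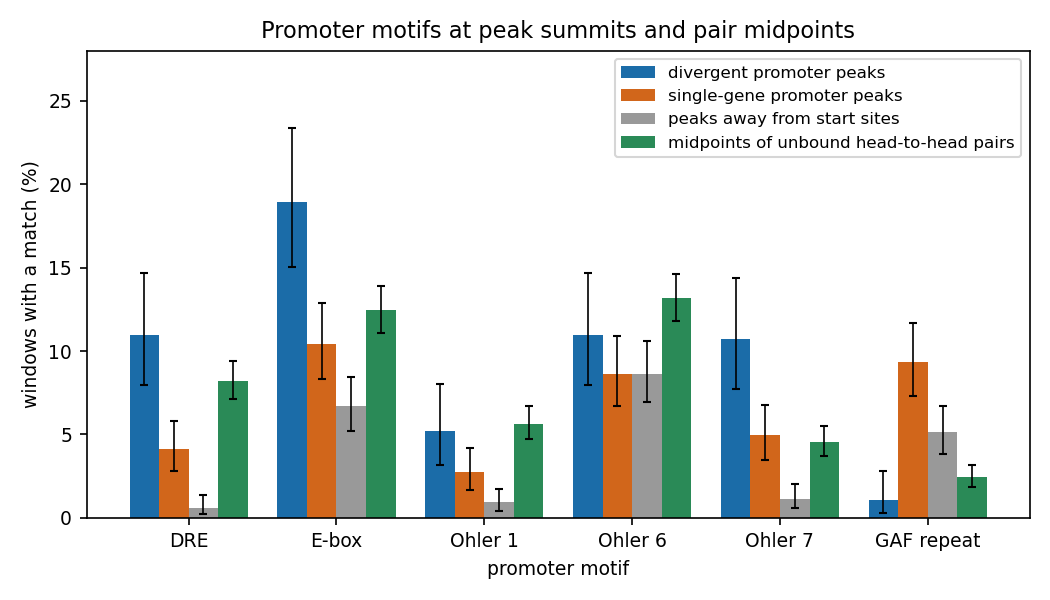
Percent of 201-bp windows with a match to each motif (vertical axis) at divergent summits, single-gene promoter summits, summits away from start sites and midpoints of unbound head-to-head pairs. Whiskers are exact 95% binomial intervals; the GAF repeat is GAGAGAG. Divergent summits have the highest share for DRE (11.0%), E-box (19.0%) and Ohler 7 (10.7%) and the lowest for the GAF repeat (1.10%).

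All 364 regions had a value in both replicates. The medians were 68.0 in replicate 1 and 57.6 in replicate 2, against 73.6 and 53.4 at single-gene promoter peaks. The median ratio of replicate 1 to replicate 2 was 1.12 (quartiles 0.910 and 1.46), against 1.39 at single-gene peaks and 1.34 over all other optimal peaks. Replicate 1 was the higher in 231 of 364 divergent regions and in 587 of 718 single-gene peaks with both values. The balance between replicates thus differed by kind of peak, with divergent regions relatively stronger in replicate 2. Replicate 2 alone would have ranked them higher: its 2174 strongest peaks overlapped 89.0% of the divergent regions and 79.4% of the other optimal peaks, while those of replicate 1 overlapped 79.1% and 84.4%.

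GC content moved with this ratio. Among divergent regions, the median ratio was 1.04 in 148 with at most 35% GC, 1.11 in 101 with 35 to 40% and 1.36 in 115 with more. Single-gene peaks gave 1.25, 1.26 and 1.60 in the same ranges. The ratio was lower at divergent regions than at single-gene peaks within each of these broad ranges. The part of GC content in the replicate balance was not tested. After scaling by the median ratio, 30 regions (8.24%) differed over 2-fold between replicates, against 11.9% of 1794 other optimal peaks. Among the widest differences were Mst36Fa/CG31751, with 92.7 in replicate 1 and 18.3 in replicate 2, trsn/Pef, with 65.0 and 14.4, and Ugt35D1/Gcn2, with 88.8 and 22.5. In the opposite direction was Rab3GAP1/CG14352, with 26.8 and 80.5. The pooled values of these 4 were between 87.8 and 117, in the lower part of the range. Over all 364, the rank correlation of the replicates was 0.614 (Spearman's rho), and over other optimal peaks 0.525, given as descriptions since all peaks come from the same libraries.

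**Figure D5:**
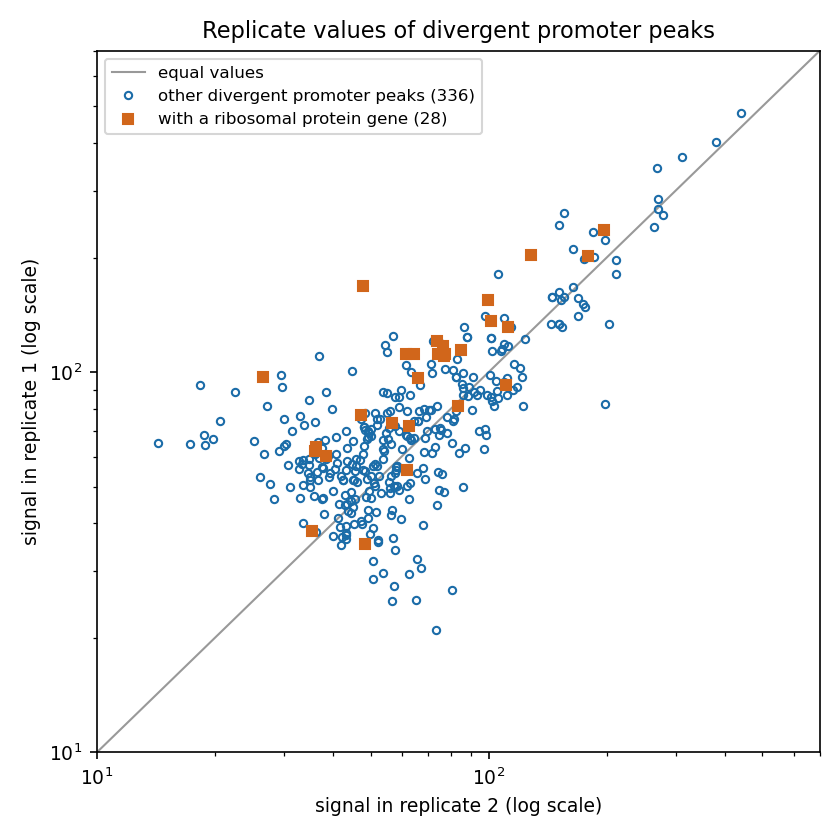
Signal of each of the 364 divergent promoter peaks in replicate 1 (vertical axis) against replicate 2 (horizontal axis), both on log scales in the authors' units, with the line of equal values. The 28 regions with a ribosomal protein gene (squares) lie mostly above the line, with replicate 1 the higher in 24. Over all optimal peaks with both values, replicate 1 was the higher in 1678 of 2158.

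Divergent regions were unevenly spread over the chromosomes. On 3R there were 114 regions, and 19.8% of 683 head-to-head pairs were bound. On 2L the share was 15.3% of 509, on 3L 16.0% of 518, on 2R 12.3% of 543 and on X 9.43% of 403. None of the 11 pairs on chromosome 4 was bound. Of the 135 bound pairs on 3R, 21 came from the single summit at pre-mod(mdg4)-E/pre-mod(mdg4)-Y, which raises the share of pairs there. Counted by peaks, 21.6% of the optimal peaks on 3R were divergent regions. The share was 17.5% on 2L, 17.3% on 3L, 15.8% on 2R and 9.47% on X. The 34 regions on X also had the lowest median signal, 107, against 114 to 130 on the other arms. Median signals of all optimal peaks by chromosome are not set beside these, so a low signal over the whole X cannot be told apart.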

How the data were processed

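Chromatin immunoprecipitation with anti-GFP from NC2alpha-eGFP embryos was analysed from the peak lists of 2 biological replicates, of the pooled replicates and the optimal list that passed an irreproducible discovery rate (IDR) filter, per the file headers and labels. The caller, aligner and IDR threshold are unnamed: not given in the sources used. Sequencing depth is unknown. The signal of each peak is the authors' deposited score. The deposited −log10 q value equalled its ceiling, 3.59, in 89.8% of the 364 regions and did not order them, so signal was used for ranks. Summits were placed with the offset from the peak start that the authors deposited (unit other). Lists on dm6 were used, and those on dm3 were not used here.

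Coordinates are counted from 1 on Release 6 (dm6) with TSSs of Ensembl release 115. A replicate's value is that of its strongest peak overlapping by at least 1 base. Head-to-head pairs of background have closest start sites at most 1000 bp apart. No hypothesis test was run, since there is 1 group and regions are not replicates; shares carry exact Clopper-Pearson 95% intervals for counting error only. The regions, 13 gene lists (by symbol) and 10 motifs were chosen with earlier results of these data known. Genes were named by rule: the 25 strongest regions, 5 shortest and 5 longest gaps, regions with ribosomal protein genes, listed genes on both sides, the 5 widest replicate differences, and up to 3 strongest per list and motif. Others named beside a small count or at the 500 bp limit (pre-mod(mdg4) and CG5611/Mtl among them) were chosen after their values were seen. Some regions that the rule names are not reported here. The rule and the searches were tested on simulated data. Alternatives were other windows, lists, start sites, replicate lists and motif settings, and the removal of peaks overlapping a stronger one, which was added after seeing the data. Computation used Python 3.11.15, numpy 2.4.6, pandas 2.3.3, scipy 1.17.1 and matplotlib 3.10.9.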

Additional observations from a re-analysis of the deposited data

How the results depend on the processing

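Of 60 values recomputed under alternatives, 39 stayed within the interval of the reported value, or within 1.5 times for counts, and 21 did not. With a 200 bp limit there were 187 regions, 8.60% of optimal peaks, 12.2% of pairs were bound (211 of the 1728 with gaps up to 400 bp that can meet this limit, or 7.91% of the 2667) and the median gap was 207 bp. With a 1000 bp limit 22.3% of optimal peaks met the rule, 74.2% had the summit between the starts and the median gap was 304 bp. A limit sets which gaps and positions can meet the rule. The 1087 strongest optimal peaks gave 194 regions, 8.40% of pairs and a median signal of 171. Taking the 4348 strongest entries of the pooled list, which can include background, gave 635 regions, 14.6% of the entries and 25.2% of pairs. With 1 representative TSS per gene the share was 14.5% of optimal peaks. Leaving out either replicate, with the 2174 strongest peaks of the other, gave 323 to 420 regions, 14.9 to 19.3% of peaks and 13.2 to 16.9% of pairs, with the higher values from replicate 2, a difference whose cause was not tested. In these lists the summit was between the starts in 75.2 to 81.7%, the median gap was 264 to 278 bp and the DRE share was 10.5 to 11.1%. The DRE share at summits was 7.69% within 50 bp, 19.0% within 200 bp and 27.5% with 1 mismatch. The replicate ratio moved little, at 1.11 to 1.13. Leaving out the 44 optimal peaks that overlap a stronger one, chosen after seeing the data, left 356 regions and moved no value outside its interval. No paired analysis was possible because there is a single group and no second one to pair with. Depth is unknown, so weak regions near the list's lower end cannot be told from regions just below it.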
